A study of Mus musculus with 10 samples.

Results

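The transcriptome described here is that of hippocampal microglia from 3xTg mice that received PBS alone. Its members are the 5 libraries whose treatment label is PBS, of 10 libraries in the series, and the remaining 5 came from mice given GA (glatiramer acetate, an immunomodulatory peptide mixture). They are named PBS 1 to PBS 5, after the number that ends each library title. The 3xTg mouse carries transgenes that include mutant human *APP* and *MAPT*, driven by a *Thy1* promoter, which is active mainly in neurons, and develops plaques and tau deposits. Every library, treated or control, came from a female of that genotype aged over 15 months, and libraries of non-transgenic mice were not analysed here. PBS was injected under the skin weekly for about 8 weeks. Live microglia were sorted as DAPI- CD45int CD11b+ cells, which leaves out CD45hi leukocytes, and amplified full-length cDNA was sequenced. The labels do not say whether a library is 1 mouse or a pool, so the spread given below is that between libraries. All values are levels and spreads within the PBS group, and no treatment was compared.

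Microglia are the resident macrophages of the brain parenchyma. They depend on signalling through the CSF1 receptor and on TGF-beta, survey neurons through fractalkine and purine receptors, and clear debris and synapses by complement-guided phagocytosis and lysosomal digestion. Near amyloid they are known to lower homeostatic genes and raise a set of lysosomal and lipid genes known as the disease-associated microglia (DAM) programme.

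*P2ry12*, *Tmem119*, *Cx3cr1* and *Cst3* served as markers to check the microglial label, and RefSeq promoters (build GRCm38.p6, 250 bases before to 50 bases after the annotated start) were matched for 3 of them. They are shown here, with that of the complement gene *C1qb*, because these genes stood among the 10 highest in counts and the windows differ in base composition. Capitals mark matches, searched on both strands, to any of 3 motifs. The first is GAGGAA, a core that the myeloid factor PU.1 binds. Another is the GC box GGGCGG, which Sp1 binds. The last is the TATA box TATAAA. The windows lie on the minus strand at chr2:148875463-148875762, chr3:59262936-59263235, chr9:120068247-120068546 and chr4:136886151-136886450, in the order printed.
Cst3: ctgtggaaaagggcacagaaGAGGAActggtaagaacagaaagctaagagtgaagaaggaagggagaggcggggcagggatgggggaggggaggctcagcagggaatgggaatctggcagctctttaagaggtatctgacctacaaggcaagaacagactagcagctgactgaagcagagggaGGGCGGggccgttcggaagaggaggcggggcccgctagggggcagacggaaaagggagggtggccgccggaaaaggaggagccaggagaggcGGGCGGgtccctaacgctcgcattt
P2ry12: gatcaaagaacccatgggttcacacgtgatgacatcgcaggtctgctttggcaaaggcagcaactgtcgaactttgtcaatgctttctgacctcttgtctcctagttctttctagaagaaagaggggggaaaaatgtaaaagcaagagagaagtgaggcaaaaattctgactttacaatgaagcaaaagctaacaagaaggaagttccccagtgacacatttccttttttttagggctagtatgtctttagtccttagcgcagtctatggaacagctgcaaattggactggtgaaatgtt
Cx3cr1: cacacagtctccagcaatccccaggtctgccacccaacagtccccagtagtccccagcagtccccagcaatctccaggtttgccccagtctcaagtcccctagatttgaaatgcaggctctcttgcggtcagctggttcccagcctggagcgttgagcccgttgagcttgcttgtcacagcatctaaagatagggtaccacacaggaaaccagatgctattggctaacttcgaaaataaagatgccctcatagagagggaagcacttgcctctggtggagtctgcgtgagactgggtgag
C1qb: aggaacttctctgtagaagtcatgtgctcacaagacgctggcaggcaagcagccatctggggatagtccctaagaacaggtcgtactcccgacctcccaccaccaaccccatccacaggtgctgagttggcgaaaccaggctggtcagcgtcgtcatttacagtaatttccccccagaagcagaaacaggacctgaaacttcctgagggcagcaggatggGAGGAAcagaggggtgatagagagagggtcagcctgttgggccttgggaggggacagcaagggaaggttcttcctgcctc

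The *Cst3* window held 1 GAGGAA, 2 GGGCGG and 13 CG pairs at 60.3% G+C. Those of *P2ry12* (42.3% G+C, 4 CG pairs) and *Cx3cr1* (54.3% G+C, 5 CG pairs) held none of the 3 motifs, and that of *C1qb* held 1 GAGGAA. For the 100 symbols highest in counts, 74 matched the promoter table, and GAGGAA stood in 42.2% of their 102 windows, GGGCGG in 49.0% and TATAAA in 14.7%. Over all 32851 windows of the table these shares were 28.3%, 35.7% and 13.6%, and over the 11673 windows of symbols with a mean of at least 1 CPM they were 26.8%, 62.1% and 6.96%. A match describes the letters only.

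Each library held 32332185 to 37708856 counts, so that 1 CPM (counts scaled to library size with TMM factors) rested on 32.3 to 38.2 counts. Of 55453 symbols, 12894 reached 10 counts in each of the 5 libraries, 12211 had a mean of at least 1 CPM, and 30411 had no count in any of them. PBS 4 stood apart from the rest, and PBS 5 did so to a lesser degree. Over 9818 symbols with a mean of at least 5 CPM, Pearson's r of log2 CPM ran from 0.968 to 0.974 in the 4 pairs with PBS 4, from 0.977 to 0.981 between PBS 5 and PBS 1 to PBS 3, and from 0.984 to 0.986 among PBS 1 to PBS 3, across genes that share their length and composition in both libraries. Symbols that differed over 2-fold numbered 219 to 277 in pairs with PBS 4, 156 to 199 between PBS 5 and PBS 1 to PBS 3, and 61 to 93 among those 3 libraries. Many values that PBS 4 or PBS 5 carried are also given without that library.

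The markers of the label were among the most abundant transcripts in every library. *Cst3*, which encodes the secreted protease inhibitor cystatin C, had 24869.9, 24831, 24745, 31591 and 30368 CPM in PBS 1 to PBS 5, a mean of 27281 ± 3404 (SD, n = 5), and held rank 1 of all symbols in each library. PBS 4 and PBS 5 were higher than the other three, and without PBS 4 the mean was 26204 ± 2777 CPM. *P2ry12*, the ADP receptor that steers microglial processes, had 7081, 6722, 6603, 6692 and 7351 CPM (6889.8 ± 316, rank 8). *Cx3cr1*, the fractalkine receptor, had 7692, 7118, 6900.2, 6657 and 7847 CPM (7243 ± 510.5, rank 6). *Tmem119*, a membrane protein of parenchymal microglia, had 5848, 6004, 5412, 5932 and 6472 CPM (5934 ± 379, rank 10). PBS 5 was the highest library for these last 3 genes, and their ranks in single libraries stayed between 6 and 13. Corrected for length, as TPM over the union of exons, *Cst3* stood at 72587 ± 6328 TPM (rank 1), *P2ry12* at 9143 ± 381 (rank 10), *Tmem119* at 8655 ± 411 (rank 12) and *Cx3cr1* at 5433 ± 397 (rank 18). Of a longer list of 17 microglial markers, all were detected by the rule of 10 counts in each library, 15 of them lay among the 100 highest symbols, and the list summed to 104639 ± 7145 CPM, or 10.4% of all counts (101701 ± 3241 CPM without PBS 5). The exceptions were the transcription factors *Sall1* (713 ± 58.8 CPM) and *Mef2c* (609.7 ± 20.8 CPM).

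**Figure D1:**
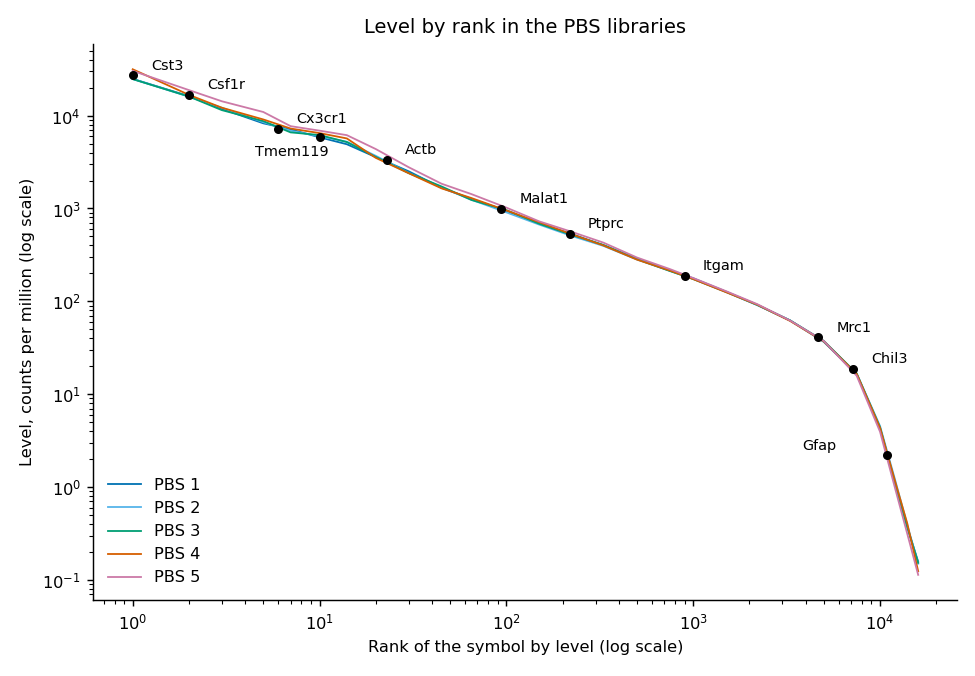
Level of symbols in CPM (log axis) against their rank (log axis) in each of the 5 PBS libraries (lines), with the mean of named genes as points. The 5 lines run together, *Cst3* and *Tmem119* lie among the 10 highest symbols, *Ptprc* is at rank 219 and *Gfap*, an astrocyte gene, at rank 10929.

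The genes of the 2 antigens that define the gate, CD45 and CD11b, were expressed at lower levels than these markers. The cells were also stained for P2RY12, whose gene is given above. *Ptprc*, which encodes CD45, had 497, 506, 539, 605 and 515 CPM (533 ± 43.6, rank 219). *Itgam*, which encodes the CD11b chain of complement receptor 3, had 211, 191, 216, 88.7 and 233 CPM (188 ± 57.4, rank 902). PBS 4 was the lowest library for *Itgam*, apart from the other four, and without it the mean was 213 ± 17.0 CPM. The annotation places 3450 of the 5024 exon bases of *Itgam* also in *Gm49368*, a gene on the same strand that had 0 to 4 counts per library, so the counts of *Itgam* depend on how shared reads were assigned.

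Counts were concentrated in few genes. The 100 highest symbols took 28.0% to 30.7% of the counts of a library, 577 symbols took 50% of the mean CPM, and 236 took 50% of the mean TPM. By level, 88 symbols had at least 1000 CPM and held 27.6% of the counts, 1908 between 100 and 1000 CPM held 44.2%, and 6693 between 10 and 100 CPM held 26.6%. The set at the top was stable between libraries: 9 symbols were in the top 10 of every library, 27 in the top 30 and 82 in the top 100. Of the 100 highest by CPM, 99 were protein coding genes of the nucleus and 72 were also among the 100 highest by TPM.

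Of the 30 highest symbols, 22 stood in at least 1 of the lists: 11 were microglial markers, 4 cathepsins, 3 genes of complement and 3 of lipid handling, with overlaps between lists. After *Cst3* came *Csf1r*, the receptor for CSF1 and IL-34 on which microglial survival depends, with 16219, 16008, 16068, 16748 and 18841 CPM (16777 ± 1190.5). PBS 5 was the highest library for *Csf1r*, whose mean was 16261 ± 337 CPM without it. Ranks 4 and 5 were held by *Ctsd* and *Ctss*. Below them stood *Selplg* (7026 ± 561 CPM), a selectin ligand, *C1qb*, *Itm2b* (5754 ± 498, or 5535 ± 99.5 without PBS 5), an integral membrane protein, *Apoe*, *Ctsb* and *C1qc*. Further down stood *Tmsb4x* (5134 ± 812), an actin-sequestering peptide, *Sparc* (4590.4 ± 538), a matrix glycoprotein, *Lgmn* (3736 ± 437), a lysosomal endopeptidase, *Psap* (3689 ± 587, or 3427 ± 57.7 without PBS 5), the precursor of the saposins, *Gpr34* (3232 ± 180.3), a lysophospholipid receptor, and *Grn* (3216 ± 315), progranulin. Among these 30 genes *Actb* and *Ivns1abp* spread most. *Actb*, cytoskeletal beta-actin, had 2898, 2366, 2792, 5283 and 3295 CPM, and *Ivns1abp*, a kelch-repeat protein, had 2852, 3079, 3029.7, 2095 and 1551 CPM. PBS 4 was highest for *Actb* (2838 ± 382 without it) and PBS 5 lowest for *Ivns1abp* (2764 ± 457 without it). Of the 30 genes, 5 share over 10% of their exon bases with another annotated gene.

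**Figure D2:**
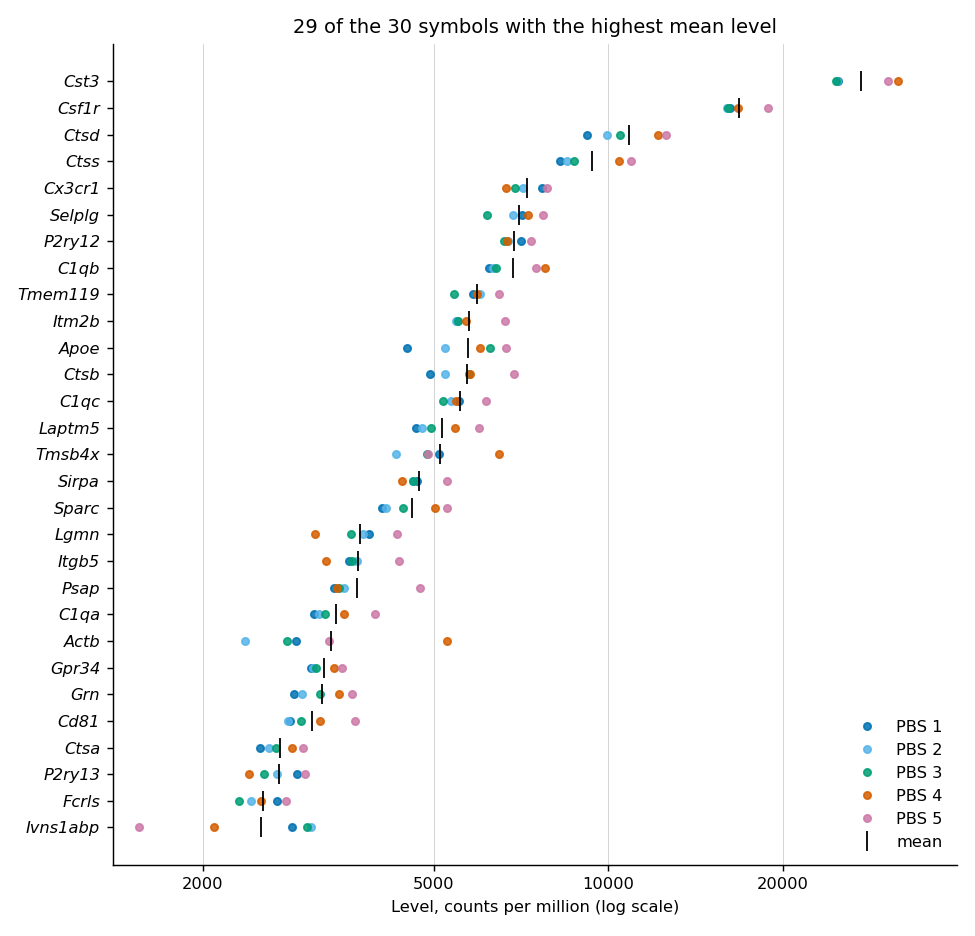
Level in CPM (log axis) of 29 of the 30 symbols with the highest mean, with a point for each PBS library and a bar for the mean. The libraries of most genes lie close together, whereas *Actb* is highest in PBS 4 (5283 CPM) and *Ivns1abp* lowest in PBS 5 (1551 CPM).

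The cathepsins, the main lysosomal proteases, were among the most abundant gene classes. Of 23 cathepsin genes, 12 were detected and 9 had no count in any library, the latter including *Ctsg*, a protease of neutrophil granules. The class summed to 30446, 32112, 33883, 37596 and 40585 CPM in PBS 1 to PBS 5 (34924 ± 4130.3, or 3.48% of counts). *Ctsd*, an aspartic protease, had 9197, 9935, 10465, 12171 and 12587 CPM (10871 ± 1456), *Ctss*, a cysteine protease that processes the invariant chain, 9381 ± 1226 CPM and *Ctsb* 5715 ± 749.99 CPM. PBS 1 was lowest for 8 of the 12 cathepsins with a mean of at least 1 CPM and PBS 5 highest for 10 of them, against 16.6% and 23.4% of all 12211 symbols of that level. The 100 highest symbols, 7 cathepsins among them, took their largest share of counts in PBS 5 (30.7%). Without PBS 5 the class summed to 33509 ± 3065 CPM. *Ctsf* was level across libraries (563 ± 17.0 CPM). Subunits of the vacuolar ATPase, which acidifies lysosomes, summed to 3403 ± 151 CPM with 18 of 25 detected, led by *Atp6ap1* (737 ± 64.3 CPM).

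Genes of lipid and cholesterol handling summed to 26220.5 ± 2989 CPM, and all 16 listed members were detected. *Apoe*, the lipid carrier, had 4505, 5232, 6254, 6013 and 6676 CPM (5736 ± 866). PBS 1 had the lowest *Apoe* level and PBS 5 the highest. Of the iron genes, *Fth1*, the ferritin heavy chain, had 1259 ± 237 CPM, whereas *Slc11a1*, an endosomal metal transporter, was among the steadier genes (474 ± 10.4 CPM, CV 2.20%).

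Complement genes summed to 18856 ± 1512 CPM, 36.3% of it from *C1qb*. The 3 chains of C1q were all abundant. *C1qb* had 6233, 6338, 6400.5, 7777 and 7513 CPM, *C1qc* 5538, 5349.7, 5194, 5473 and 6164 CPM, and *C1qa* 3107, 3172, 3249.8, 3508 and 3964 CPM. Per length, the order was *C1qb* at 21227 ± 1482 TPM, *C1qa* at 11018 ± 679 and *C1qc* at 9691 ± 392, so that *C1qa* and *C1qc* changed places. The SDs of neighbours in that order did not overlap, but they hold the spread between libraries and no error in the exon lengths used. Later components were low: *C4b* had 47.3 ± 10.7 CPM and *C3* 7.82 ± 3.14 CPM, and *C2* and *Cfb* were not detected by the rule of 10 counts in each library. The receptor gene *C3ar1* (467 ± 74.9 CPM) was higher.

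Receptors of homeostatic microglia were abundant. The purinergic list summed to 11404 ± 615 CPM, of which *P2ry12* was 60.4%, followed by *P2ry13* (2708 ± 247 CPM) and the ectonucleotidase *Entpd1* (970.2 ± 70.1 CPM), while *P2ry1*, *Adora2a* and the ecto-5'-nucleotidase gene *Nt5e* were not detected. The list of growth factor and TGF-beta genes summed to 21408 ± 1502 CPM (20744 ± 256 without PBS 5), with *Tgfbr1* at 2309.7 ± 245 (2203 ± 63.6 without PBS 5) and *Tgfbr2* at 1031 ± 129 CPM beside *Csf1r*. Its ligand genes differed: *Tgfb1* had 205 ± 27.0 CPM, *Csf1* 103 ± 22.8 CPM and *Il34*, a neuronal ligand of CSF1R, no count in any library. Fc and immune tyrosine receptor genes summed to 11188 ± 379 CPM (CV 3.39%), led by *Fcrls* (2544 ± 191 CPM), *Siglech* (2039 ± 124 CPM) and *Fcgr3* (1731 ± 146 CPM). *Trem2*, the lipid receptor tied to the DAM programme, had 1634, 1759, 1727, 1519 and 1478 CPM, and its adaptor *Tyrobp* had 991 ± 104 CPM. Per length, over the union of annotated exons, *Tyrobp* (5008 TPM) stood above *Trem2* (1112 TPM), the reverse of their order in CPM. This order rests on the exon lengths used and may not hold for the transcripts expressed.

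All 30 genes of the DAM list were detected. The list shares 4 genes with the cathepsins, which made up 51.2% of its sum, so the 2 classes are not separate. Their sum was 32345, 35182, 38713, 41558 and 44439 CPM in PBS 1 to PBS 5 (38448 ± 4836, or 3.84% of counts), and 11 of them were among the 100 highest symbols, with *Ctsd*, *Apoe*, *Ctsb*, *Ctsz* and *B2m* at the top. PBS 1 was the lowest library for 24 of the 30 genes, against 16.6% of all 12211 symbols with a mean of at least 1 CPM, and PBS 5 was highest for 17, against 23.4%. The 100 highest symbols, 11 DAM genes among them, took their largest share of counts in PBS 5 (30.7%). Without PBS 5 the sum was 36949.5 ± 4028 CPM. The other 26 genes summed to 15579.5, 17198, 19387, 20242 and 21327 CPM, a split made after the values were seen, and PBS 1 was again lowest and PBS 5 highest. Genes that mark the late stage of the programme were present at moderate levels. *Lpl*, lipoprotein lipase, had 359, 475, 551, 703 and 670.4 CPM, *Cst7*, cystatin F, had 193, 269, 303, 294 and 315 CPM, and *Axl*, a TAM receptor, had 203, 277, 357, 315 and 393 CPM. *Spp1*, osteopontin, had 76.8, 101.4, 108, 246 and 154 CPM (110.2 ± 32.2 without PBS 4). PBS 1 was lowest for all 4 of these genes, which were named after their values were seen. *Clec7a* (59.7 ± 17.5 CPM), *Itgax* (62.3 ± 12.4 CPM) and *Gpnmb* (20.4 CPM) were lower. With no non-transgenic or younger group analysed here, these levels have no reference.

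MHC class II genes spread widely between libraries, and much of that spread came with PBS 4. The 9 genes summed to 1326, 1700.0, 1563, 2604 and 1282 CPM (1695 ± 536, CV 31.7%), and PBS 4 was highest for 8 of the 9, against 27.0% of all symbols, so that the sum was 1468 ± 198 CPM without PBS 4. *Cd74*, the invariant chain, had 495, 755, 639.7, 1143 and 471 CPM (590.2 ± 132 without PBS 4), and *H2-Ab1* had 184, 230.5, 209, 383 and 130.4 CPM (188 ± 43.1 without PBS 4). MHC class I genes summed to 3781, 4930.2, 4829.5, 4839 and 5067 CPM (4689.6 ± 517), with PBS 1 below the rest. *H2-D1* had 965, 1514, 1404, 1147 and 1454 CPM and *H2-Q6* had 12.1, 51.2, 32.9, 19.2 and 27.2 CPM, while the light chain gene *B2m* had 1375, 1625, 1729, 2118 and 1879 CPM. The H2 genes are closely alike in sequence, so reads may have been shared between them or left out.

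Secreted mediators were low beside these classes. Of 14 chemokines, 10 were detected, led by *Ccl6* (349 ± 44.2 CPM), *Cxcl16* (125 ± 14.2 CPM) and *Ccl4*, which had 38.0, 90.4, 126, 82.9 and 96.7 CPM. PBS 1 was lowest for *Ccl4* and *Ccl3*. Of 12 cytokines, *Tgfb1*, *Il16* (173 ± 9.37 CPM) and *Il1a* (127 ± 19.7 CPM) were highest, *Il1b* (23.5 ± 10.9 CPM), *Il6* (10.5 ± 3.48 CPM) and *Tnf* (6.94 ± 2.76 CPM) were low, and *Il10* had no count, which allows up to 0.0785 to 0.0930 CPM. *Cxcl13*, a B cell chemoattractant named after its values were seen, had 49.9, 231, 68.2, 346 and 103 CPM (113 ± 81.5 without PBS 4). The 19 interferon response genes summed to 317, 272, 409, 310.3 and 288 CPM, and PBS 3 was highest for 14 of them, against 16.4% of all symbols. *Irf7*, a master regulator of that response, had 17.0, 9.89, 25.9, 10.9 and 11.2 CPM.

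**Figure D3:**
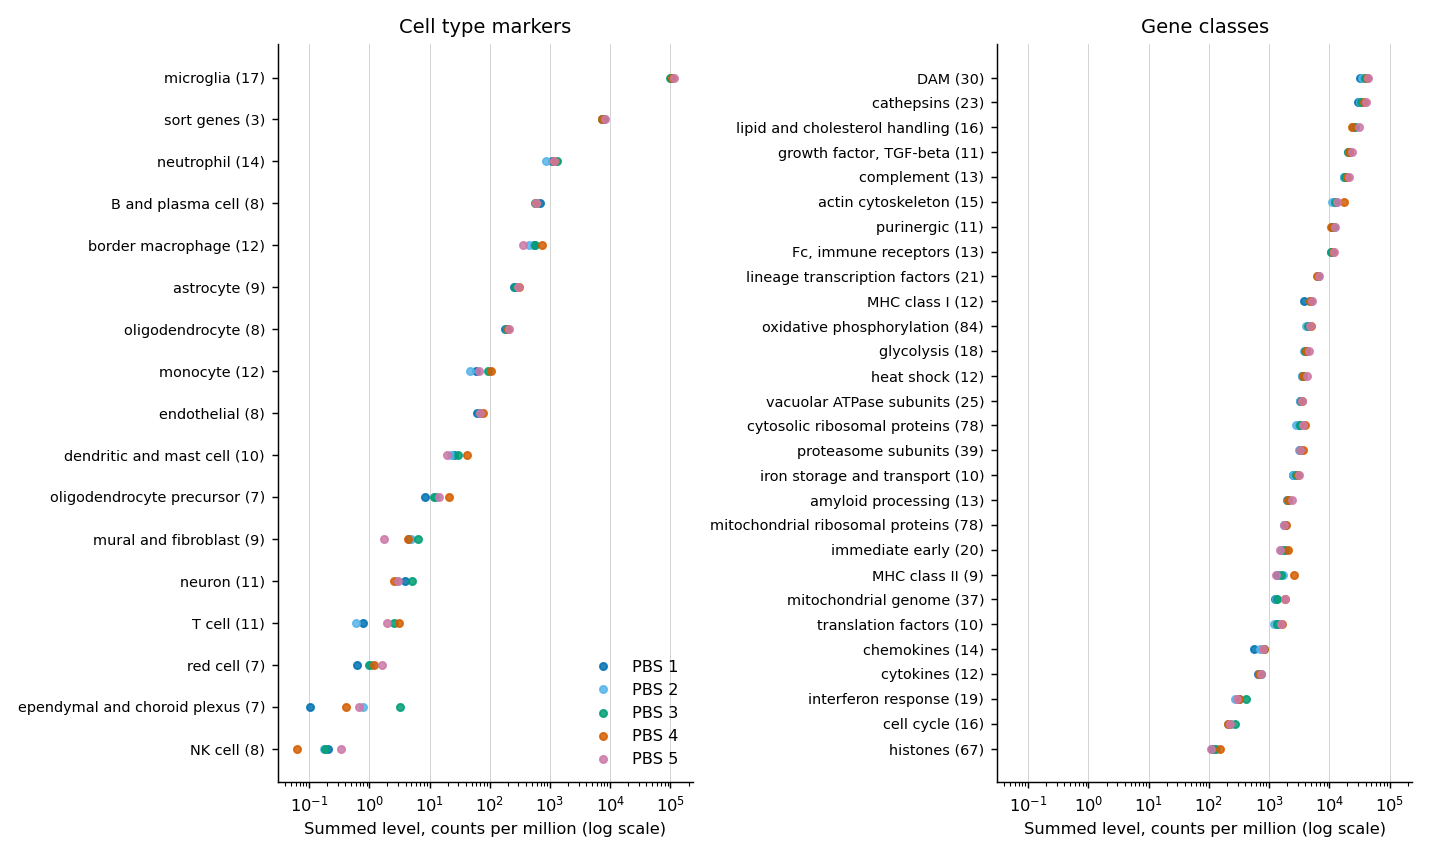
Summed level in CPM (log axis) of each list of cell type markers (left) and each gene class (right), with the number of members in brackets and a point for each PBS library. Microglial markers sum to 98133 to 116393 CPM, whereas the lists of neurons, T cells, NK cells, red cells, mural and ependymal cells lie under 10 CPM.

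Transcription factors of the lineage had the steadiest sum of the longer immune lists, at 6494 ± 198 CPM (CV 3.05%), with 20 of 21 detected. Their single genes were not the steadiest. The median CV of members was 8.99%, against 7.62% for the Fc and immune tyrosine receptors. *Irf8*, a factor of macrophage identity, had 1006, 891, 905, 1036 and 1008 CPM. *Sall1*, a factor of microglial identity, had 786, 717, 685, 631 and 744 CPM, and *Spi1*, which encodes PU.1, had 432, 368, 365, 362 and 407 CPM. Immediate early genes, which respond within minutes to stimulation and to cell handling, summed to 1649.7, 1604, 1804, 2072 and 1535 CPM, and PBS 4 was highest for 10 of the 18 with a mean of at least 1 CPM, against 27.0% of all symbols. Without PBS 4 the sum was 1648 ± 114 CPM. *Dusp1*, a phosphatase of that set, had 28.9, 19.2, 24.9, 83.6 and 13.4 CPM (21.6 ± 6.78 without PBS 4), and *Fos* had 2.33, 4.81, 8.03, 13.6 and 4.19 CPM (4.84 ± 2.37 without PBS 4). Heat shock genes summed to 3705 ± 346 CPM (3555 ± 93.7 without PBS 5), mostly from the endoplasmic reticulum chaperones *Hspa5* (1478 ± 151 CPM, or 1410.5 ± 19.1 without PBS 5) and *Hsp90b1* (932 ± 67.0 CPM, or 903 ± 20.03 without PBS 5), whereas the inducible *Hspa1a* and *Hspa1b* were not detected in every library.

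In carbohydrate metabolism *Slc2a5*, the fructose transporter of microglia, led the 18 glycolysis genes with 1495, 1339, 1300.2, 1246 and 1549 CPM, above *Aldoa* (440 ± 38.4 CPM) and *Pkm* (339 ± 34.6 CPM). Nuclear subunits of oxidative phosphorylation summed to 4557 ± 335 CPM with 79 of 84 detected. The mitochondrial genome gave 0.129% to 0.180% of counts. Its highest genes were *mt-Cytb* (376 ± 68.1 CPM) and *mt-Rnr2* (360.4 ± 73.8 CPM), and 5 of its 13 protein coding genes (*mt-Co2*, *mt-Co3*, *mt-Atp6*, *mt-Atp8* and *mt-Nd4l*) had no count at all in a list whose other members had up to 16477 counts per library. The cause of these zeros was not tested, and the mitochondrial values are therefore partial. Genes of cytosolic ribosomal proteins were also low for their known abundance: the 78 genes summed to 3324 ± 455 CPM (0.332% of counts), from *Rpl4* at 249.8 ± 23.8 CPM to *Rpl24* at 0.547 ± 0.158 CPM. Many of these genes have near-identical pseudogenes, and whether reads matching several places were counted is not given in the sources used here.

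Division genes were scarce. The 16 cell cycle genes summed to 226, 206, 275, 209.7 and 222 CPM, 45.2% of it from the replication helicase subunit *Mcm3* (103 ± 14.2 CPM). The proliferation markers *Mki67* and *Top2a* had 7.28, 8.99, 16.5, 8.55 and 7.03 CPM and 7.14, 10.6, 18.8, 4.12 and 9.41 CPM, and PBS 3 was highest for 10 of the 15 genes with a mean of at least 1 CPM, against 16.4% of all symbols. Of the loci behind the transgenes, mouse *App* had 354, 368, 386, 400.2 and 443 CPM. Mouse *Mapt*, which encodes tau, had 0.243 ± 0.258 CPM and *Thy1* 0.112 ± 0.114 CPM, close to the limit of detection. The table lists mouse genes, and human transgene reads that match mouse sequence were not told apart. Gamma-secretase and alpha-secretase genes were expressed, with *Ncstn* at 489 ± 38.7 and *Adam10* at 477 ± 53.4 CPM, whereas the beta-secretase gene *Bace1* had 14.9 ± 2.93 CPM and *Bace2* no count.

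Markers of other cells were mostly near 0, and several lists with higher sums rested mainly on 1 gene. In bulk RNA, fewer cells of a type and less RNA per cell cannot be told apart. Neuron markers summed to 2.57 to 5.07 CPM over 11 genes, with 1 detected (*Camk2a*, 1.73 ± 0.296 CPM). T cell markers summed to 0.598 to 3.07 CPM, with 1 of 11 detected and *Cd8a* at 0. NK cell markers summed to 0.0620 to 0.340 CPM with none of 8 detected, and *Ncr1*, *Gzmb*, *Klra8* and *Eomes* were at 0. Red cell genes summed to 0.628 to 1.62 CPM and ependymal and choroid plexus genes to 0.105 to 3.24 CPM, the latter mostly *Ttr* in PBS 3. Endothelial markers summed to 62.2 to 75.9 CPM, from *Pecam1* (30.3 ± 4.82 CPM), *Kdr* (27.4 ± 3.49 CPM) and *Flt1*, while the defining *Cldn5* had 0.0489 CPM and *Slco1a4* was at 0. Mural and fibroblast markers summed to 1.73 to 6.47 CPM, 90.6% of it *Pdgfrb*, and dendritic and mast cell markers to 19.6 to 41.6 CPM, with 5 of 10 at 0.

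The glial lists rested on few genes. Oligodendrocyte precursor markers summed to 8.30 to 21.1 CPM, 95.0% of it *Cspg4*, with *Olig2* and *Gpr17* at 0. The astrocyte sum of 249 to 307 CPM was 97.5% *Slc1a3* (274 ± 22.8 CPM), a glutamate transporter, and the defining *Gfap* (2.20 ± 1.77 CPM), *Aqp4* and *Gja1* were near 0. Oligodendrocyte markers summed to 180.5 to 209.6 CPM from *Cnp* (102 ± 12.03 CPM), *Mbp* (52.6 ± 7.51 CPM) and *Mag* (35.8 ± 5.08 CPM), while the defining *Mog* was at 0. B and plasma cell markers summed to 567 to 673 CPM, of which the immunoglobulin heavy constant gene *Ighm* was 95.9%, with 648, 569, 541, 552 and 551 CPM. *Cd79a* (0.347 CPM), *Ms4a1* (0.111 CPM) and *Pax5* (0.0360 CPM) were near 0, and the light chain gene *Igkc* had 1.74 ± 0.544 CPM. *Cd79b*, which encodes a chain of the B cell receptor, was detected in every library, with 22.5, 16.2, 23.5, 21.01 and 26.6 CPM (21.95 ± 3.81).

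Among the cell type lists that summed to over 50 CPM, those of monocytes (CV 31.4%), border macrophages (27.2%) and neutrophils (15.1%) differed most between libraries. Neutrophil markers summed to 1073, 861, 1319, 1152 and 1183 CPM, 75.5% of it *Csf3r* (844 ± 42.8 CPM), the G-CSF receptor. The other 13 genes together had 166, 44.0, 470.4, 299 and 389 CPM, a sum formed after the values were seen. *Ngp*, a granule protein, had 48.6, 6.81, 115, 81.6 and 95.9 CPM, and *S100a9*, a calgranulin, had 27.9, 10.04, 96.4, 57.0 and 77.3 CPM. PBS 2 was lowest and PBS 3 highest for both genes and for *Ltf* and *S100a8*, and PBS 3 was highest for 8 of the 10 neutrophil genes with a mean of at least 1 CPM, against 16.4% of all symbols. The defining *Ly6g* had 0.157, 0.0598, 1.13, 0.155 and 0.794 CPM. Border macrophage markers summed to 547, 445, 573, 742 and 358 CPM (481 ± 98.6 without PBS 4), 73.5% of it *Stab1* (392 ± 59.0 CPM), and all 12 were detected. Without *Stab1*, a step also chosen after the values were seen, the sums were 114, 61.7, 168, 299 and 63.4 CPM (102 ± 50.5 without PBS 4). *Mrc1*, the mannose receptor, had 36.3, 16.1, 53.0, 82.8 and 17.3 CPM, *F13a1* had 24.3, 13.8, 43.6, 81.0 and 15.9 CPM, and *Lyve1* had 8.32, 2.21, 13.2, 30.2 and 4.76 CPM. Without PBS 4 their means were 30.7 ± 17.5, 24.4 ± 13.6 and 7.13 ± 4.77 CPM. PBS 4 was highest for 10 of 11 of these genes, against 27.0% of all symbols, and PBS 2 was lowest for 7, against 18.7%. Monocyte markers summed to 47.4 to 103 CPM with 6 of 12 detected, led by *Ccr2* (31.3 ± 11.6 CPM), while *Ly6c2* had 0.809 CPM. The part of such cells in the levels of MHC class II, *Actb* and other genes that were high in PBS 4 was not tested.

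By annotation, protein coding genes held 98.5% ± 0.104 of counts and long non-coding genes 0.670% ± 0.0773. The latter were led by *Malat1*, a nuclear RNA, with 1087, 1134, 945, 921 and 868 CPM, followed by *Gm10790* (186 ± 37.7 CPM), *Cct6a* (153 ± 7.72 CPM, annotated here as a processed transcript), *Tug1* (118 ± 11.7 CPM) and *Xist* (114 ± 17.6 CPM). Xist is expressed from the inactive X chromosome of females, and none of the 1562 symbols of the Y chromosome was detected. Pseudogenes held 0.160% of counts, led by *Gm8995* (118 ± 8.77 CPM). Antigen receptor segments held 0.0616%, nearly all of it *Ighm*, and ribosomal RNA genes 0.0256%. Chromosome 2, which carries *Cst3*, held the largest share of counts of any chromosome (9.95% ± 0.280).

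The spread between libraries fell with level down to a floor that counting error did not reach. The median CV over the 5 libraries was 29.2% at 1 to 10 CPM, 12.6% at 10 to 100 CPM, 9.19% at 100 to 1000 CPM and 10.1% above 1000 CPM, where counting alone would give 9.60%, 2.94%, 1.31% and 0.409%. Over the 9818 symbols with a mean of at least 5 CPM the median CV was 12.4% (10th percentile 6.28%, 90th 24.9%). The common biological coefficient of variation from edgeR was 0.203, and 0.179 without PBS 4. In 789 symbols the highest library was over 2 times the lowest, and in 59 (0.601%) over 4 times, of which 20 remained over 4 times without PBS 4.

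**Figure D4:**
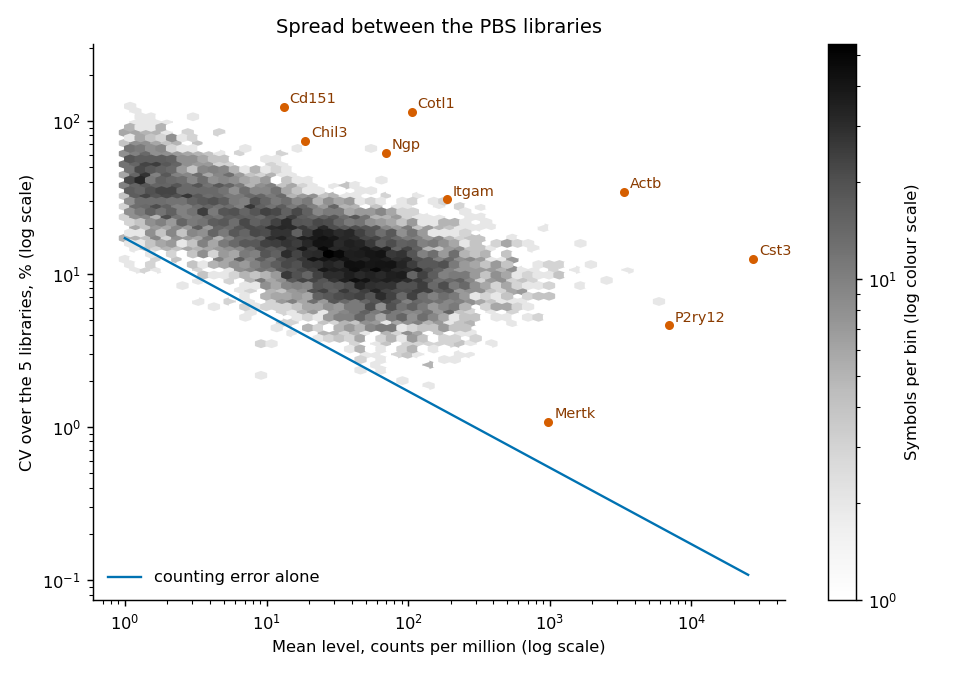
CV over the 5 PBS libraries in percent (log axis) against mean level in CPM (log axis) for the 12211 symbols with a mean of at least 1 CPM, as counts per hexagon, with the CV from counting error alone as a line. *Mertk* (978 CPM) lies near the line with a CV of 1.07%, and *Cd151*, *Cotl1* and *Chil3* lie far above it.

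The steadiest genes included a phagocytic receptor. *Mertk*, the TAM receptor kinase that binds dying cells, had 994, 967, 980.2, 972 and 978 CPM, a CV of 1.07%, the smallest SD of log2 CPM among the 4015 symbols with a mean of at least 50 CPM. It was followed by *Rnf141*, *Ubap1*, *Ctc1* (333 ± 5.18 CPM), *Gps1*, *Lacc1*, *Ddx42*, *Nek6*, *Pitpna* and *Atf6b*, all with CVs from 1.27% to 1.85%. Of the label markers *P2ry12* was the steadiest (CV 4.58%) and *Cst3* the least steady (CV 12.5%).

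Of the 15 genes with the largest SD of log2 CPM at a mean of at least 5 CPM, 6 stood in the neutrophil list (*Ngp*, *Ltf*, *Camp*, *Lcn2*, *S100a8* and *S100a9*), 1 in the monocyte list (*Chil3*), 2 in the border macrophage list and 6 in none. The 7 neutrophil and monocyte genes were lowest in PBS 2, against 18.7% of all symbols, as were *Cd177* and *Anxa1*, which are in no list. *Chil3*, a chitinase-like protein, had 8.66, 0.687, 32.3, 30.1 and 21.7 CPM. *Cd209f* and *Lyve1*, of border macrophages, were highest in PBS 4. *Dqx1* had 8.37, 8.67, 11.5, 1.36 and 3.37 CPM and was lowest in PBS 4. *Cd151*, a tetraspanin, had 6.62, 4.81, 6.35, 42.1 and 6.21 CPM, so that it was high in PBS 4 only, and its mean without PBS 4 was 5.998 ± 0.810 CPM. *Gm8189* had 0.497, 17.9, 11.7, 14.8 and 7.79 CPM and *Gm28187* 0.733, 12.1, 7.54, 7.003 and 5.33 CPM, and both were low in PBS 1. Named after their values were seen, *Cotl1*, an actin-binding protein, had 52.5, 35.9, 65.9, 322 and 54.4 CPM and *Mpeg1*, macrophage perforin, had 253, 263, 492, 1297 and 539 CPM. Without PBS 4 their means were 52.2 ± 12.4 and 387 ± 150.0 CPM.

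Genes of some classes shared their highest and lowest libraries. Of the 77 cytosolic ribosomal protein genes with a mean of at least 1 CPM, 62 were highest in PBS 4 and 68 lowest in PBS 2, and the sums were 3119, 2764, 3204, 3950.3 and 3584 CPM (3168 ± 337 without PBS 4). Of 78 oxidative phosphorylation subunits, 61 were highest in PBS 4 and 49 lowest in PBS 2, and of 38 proteasome subunits 23 and 22. Without PBS 4 these classes summed to 4439.7 ± 239.9 and 3217 ± 85.6 CPM. Among the 15 actin cytoskeleton genes 10 were highest in PBS 4 and 13 lowest in PBS 2, with sums of 13121, 11237, 12515, 17420.4 and 13528 CPM (12601 ± 999.6 without PBS 4). Over all 12211 symbols, PBS 4 was highest for 27.0% and PBS 2 lowest for 18.7%. The microglial markers followed another order, with 13 of 17 highest in PBS 5 and 8 lowest in PBS 3, against 23.4% and 15.9% of all symbols. However, 15 of the 17 are among the 100 highest symbols, which took their largest share of counts in PBS 5 (30.7%). The share of all symbols therefore does not set these markers apart from other abundant genes. Members of a class are counted in the same libraries and are not independent, and the part of RNA quality or cell handling in these orders was not tested.

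**Figure D5:**
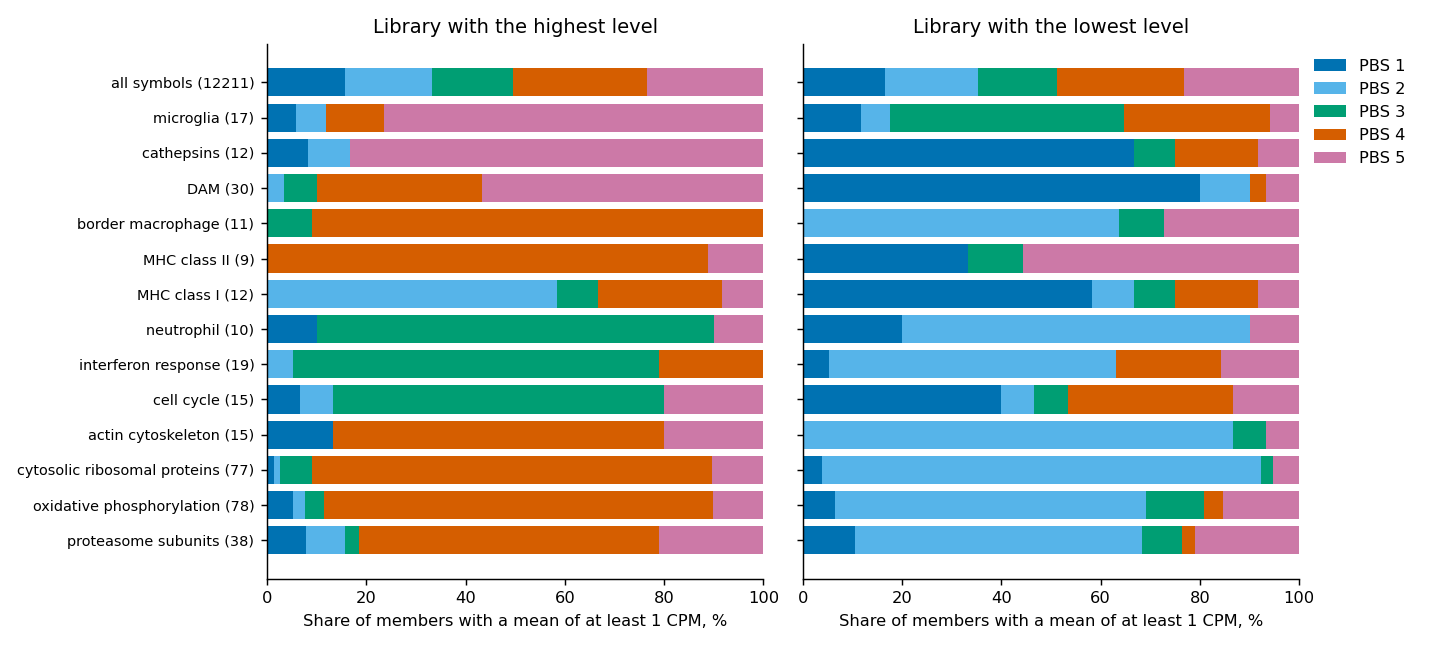
Share of the members of each list shown, with the number of members of at least 1 CPM in brackets, whose highest (left) or lowest (right) level was in each PBS library. The share axis runs from 0 to 100%. Border macrophage, MHC class II and cytosolic ribosomal protein genes are mostly highest in PBS 4, neutrophil, interferon and cell cycle genes in PBS 3, and DAM genes are mostly lowest in PBS 1.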

How the data were processed

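RNA of sorted microglia was amplified with SMARTer v4 and made into NexteraXT libraries. The authors deposited raw gene counts; the submitters' processing notes name bcl2fastq 2.19.0, fastp 0.20.0, STAR 2.7.0f, Subread 1.6.4 with featureCounts, DESeq2 and build GRCm38.p6. Strandedness, the annotation and the handling of reads with several matches are not given in the sources used here. CPM used TMM factors of all 10 libraries (edgeR 4.0.16, R 4.3.3), and TPM used GENCODE union exon lengths. Symbols were matched to GENCODE for 54586 of 55453. A symbol was detected at 10 or more counts in each library. A count of 0 allows up to 3 counts, and this covers counting error only. No groups were compared and no p-value was computed. Dixon's criterion (0.710 for 5 libraries) marked libraries far from the others. Named genes were the label, sort and transgene genes, the 30 highest by CPM, the 20 highest coding genes per length, the 3 highest of each list, the 15 most variable, the 10 least variable, and the 5 highest non-coding genes and pseudogenes. Some genes are not reported here, though they count in the sums of their lists. Other list members given with values were chosen after their values were seen. The libraries and lists were chosen with earlier results of these data known. Alternatives were other scalings, medians, minimum levels, gene lengths and leaving out each library. Which values are printed without PBS 4 or PBS 5 was chosen after seeing the data. The estimate of spread was also run on simulated counts with a set dispersion. Those counts held no shift shared by many genes of a library, so that run does not check spread such as PBS 4 brought.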

Additional observations from a re-analysis of the deposited data

Results flagged for a closer look

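Dixon's criterion was applied to 229 measures (46 list sums, 179 genes and 4 depth measures). By chance it marks a library in about 1 of 20 groups of independent, normally distributed values. The measures are not such groups, because some genes were named for their spread and list sums overlap with their members. Some genes, such as *Prf1*, had counts in only 1 library. That rate is therefore no reference for the number found. For 25 of the 229 measures, 1 library lay far from the other 4. PBS 5 was that library for 11, PBS 1, PBS 3 and PBS 4 for 4 each and PBS 2 for 2. Over all 9818 symbols with a mean of at least 5 CPM the order differed. There PBS 4 was that library for 2.76% of symbols, PBS 5 for 2.04% and each of the others for 0.458% to 0.581%. No cause was tested.

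PBS 5 was high for the sums of growth factor and TGF-beta genes (24064.3 CPM), heat shock genes (4307.45 CPM) and amyloid processing genes (2361.51 CPM). It was also high for *Csf1r* (18841.4 CPM), *Itm2b* (6632.71), *Psap* (4734.84), *Tgfbr1* (2735.93), *Hspa5* (1745.77) and *Hsp90b1* (1047.55), and low for *Mrps15*, a mitochondrial ribosomal protein gene (44.3258 CPM). PBS 1 was high for B and plasma cell markers (672.692 CPM) and for *Ighm*, which makes up most of them (647.542 CPM), and low for MHC class I (3781.44 CPM) and the chemokine *Cxcl16* (100.125 CPM). PBS 3 was high for the cell cycle list (275.451 CPM). PBS 4 was low for *Itgam* (88.6792 CPM) and high for *Cd151* (42.0777 CPM).

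The others were near the limit of detection. PBS 3 was high for ependymal and choroid plexus markers (3.23737 CPM), for their member *Ttr* (3.1152 CPM) and for *Acta2* (0.702447 CPM). PBS 4 was high for *Ptprz1* (0.991522 CPM) and *Clic6* (0.216895 CPM), PBS 2 for *Prf1* (0.179284 CPM) and *Gm49368* (0.119523 CPM), and PBS 5 for *Klrb1c* (0.0850239 CPM).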

How the results depend on the processing

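Under other scalings, the levels of genes and list sums with a mean of at least 5 CPM moved by at most 1.03% and 0.355%. The median over libraries or leaving out a library moved single genes by up to 54.6% (*Cd151*, 13.2 to 5.998 CPM without PBS 4) and list sums by up to 13.5% (oligodendrocyte precursor markers, without PBS 4). Per kilobase of exon, the 100 highest symbols held 41.5345% of the total and 236 symbols held 50%; *Cx3cr1* moved to rank 18, or to rank 23 by the longest transcript, and *P2ry12* to rank 13 by the longest transcript. The median CV was 14.3165% at a minimum mean of 1 CPM and 9.95268% at 50 CPM, and ran from 10.7002% (without PBS 4) to 12.7105% with 1 library left out. The biological coefficient of variation was 0.315085 with no filter on low counts and ran from 0.179475 (without PBS 4) to 0.214314 with 1 library left out. Symbols over 4-fold between libraries numbered 8 at a minimum of 50 CPM, and 20 (without PBS 4) to 55 with 1 library left out. No paired analysis was possible because the values come from 1 group and no test. Depth limits statements on symbols under about 1 CPM, where the spread nears counting error. Ranks in CPM favour long genes, genes with near-identical copies may be undercounted, and overlapping genes cannot be told apart without strand.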
